A study of Mus musculus with 6 samples.

Results

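The Clariom D mouse array carries 186 probe sets whose identifiers begin with TSUnmapped, the mark of transcripts that the array's design did not place on the genome, and they were taken by that prefix from the 65956 probe sets other than controls. All other probe sets have identifiers that begin with TC, and are called mapped here. Of the 186, 165 carried 1 gene symbol in the platform annotation (138 different symbols) and 21 carried none, and all 165 matched a RefSeq gene with a chromosome in GRCm38.p6, so for these the mark does not mean that the gene has no known place. The RNA was that of macrophages grown from C57BL/6J bone marrow (BMDMs) with 20 ng/ml macrophage colony-stimulating factor. All cultures received recombinant GAS6 (rGAS6), which activates the receptor tyrosine kinase MerTK, then went through hypoxia/reoxygenation (HR), which imitates ischemia-reperfusion in a dish, and were collected 24 h later. The first group, WT, held 3 arrays from Cre-negative littermates that carry Atf3 flox/flox, and the second, ATF3-CKO, held 3 arrays from Atf3 flox/flox mice with Lyz2-Cre, which acts in myeloid cells, so that Cre and the loss of ATF3, a stress-induced transcription factor, cannot be told apart. The study used male adult mice.

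The labels were read against the data first. The mapped Atf3 probe set was higher on all 3 arrays labelled ATF3-CKO (9.20, 9.26 and 9.25 on the log2 intensity scale) than on the 3 WT arrays (8.56, 8.46 and 8.38), against the label. Which exons were removed is not stated in the sources, and a probe set outside them would check nothing. The group is therefore called by its label throughout. Lyz2, the other label check, read 18.90, 19.14 and 18.73 on WT arrays, against 19.39, 19.35 and 19.51 on those labelled ATF3-CKO. It was thus higher on the latter as well, but did not pass (limma adjusted p 0.0817). The 8 macrophage markers read were all brighter than the array's median level, with 2 called higher (Mertk and Cd14) and 1 lower (Itgam) on the arrays labelled ATF3-CKO. Of 8 neutrophil markers 6 were lower on the arrays labelled ATF3-CKO in limma, and their mean level over the list ran from 10.08 to 10.42 on WT arrays and from 6.77 to 8.10 on the others. All 4 osteoclast markers were lower too (list mean 9.64 to 10.23 on WT arrays, 7.01 to 7.17 on the others). Of 4 monocyte markers only Ly6c2 was called lower (mean 13.99 on WT arrays, 9.85 on the others). The mean over all 4 ran from 6.59 to 6.76 on WT arrays and from 5.30 to 5.91 on the others. The part of these cell types in the results below was not tested.

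A probe set can lack a genomic position for several reasons of design, and these 186 are a mixture of RNA kinds. By the RefSeq class of their gene, 53 belonged to protein-coding genes, 37 to microRNAs, 33 to ribosomal RNAs (rRNA), 19 to long noncoding RNAs, 12 to small nuclear RNAs (snRNA), 4 to small nucleolar RNAs (snoRNA), 3 to transcribed pseudogenes, 2 to the small cytoplasmic RNA class (7SL) and 2 to Y RNAs. Messenger RNAs are the templates of proteins. The structural RNAs work without being translated: 5S and 28S rRNA build the large ribosomal subunit, 7SL is the RNA of the signal recognition particle, 7SK restrains transcription elongation, U1, U2 and U5 belong to the spliceosome, and U3 and most other snoRNAs guide the processing of ribosomal RNA. MicroRNAs pair through a short seed with messenger RNAs and reduce their output. Structural RNAs exist in many near-identical gene copies, and probe sets of such copies can read the same molecules.

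Sequences that the array used for these probe sets are not shown here, so the RNAs are shown by their reference sequences from RefSeq. The mature microRNAs of the 8 brightest microRNA members follow from 5′ to 3′, except Mir3471-2, for which no mature sequence was found. The seed (bases 2 to 8) is in capitals, because microRNAs pair with messenger RNAs through it. The array was hybridised with total RNA, and whether a signal came from the mature RNA, its hairpin or a host transcript is not stated in the sources.
mmu-miR-6240 (chr5:114851973-114851998, plus strand): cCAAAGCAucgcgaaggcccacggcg
mmu-miR-3472 (chrX:145039390-145039414, plus strand): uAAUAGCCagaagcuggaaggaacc
mmu-miR-7683-5p (chr1:171641879-171641900, minus strand): uUCCGUGUuucgucugaccacu
mmu-miR-7683-3p (chr1:171641840-171641860, minus strand): uGGAAAGGuggaacacggaac
mmu-miR-8117 (chr5:50252823-50252843, plus strand): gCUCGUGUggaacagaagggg
mmu-miR-3473b (chr10:41670774-41670793, plus strand): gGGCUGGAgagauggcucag
mmu-miR-680 (chr6:129691541-129691561, plus strand): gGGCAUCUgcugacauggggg
mmu-miR-342-5p (chr12:108658638-108658659, plus strand): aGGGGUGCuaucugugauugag
mmu-miR-342-3p (chr12:108658680-108658702, plus strand): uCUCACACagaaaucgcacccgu
No 2 of the 45 mature sequences found for 32 of the 37 microRNA genes shared a seed. The 20 bases of mmu-miR-3473b stood whole, on either strand, in 32 of 32851 RefSeq promoter windows of 300 bases (0.0974%). The same search found mmu-miR-680 in 1 window and the other sequences shown in 0.

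Signal levels differed widely between RNA classes. The median of the 186 mean levels was 5.88 (quartiles 3.56 and 13.96), against 4.32 (3.50 and 6.57) over all 65956 probe sets, but 31 rRNA probe sets with 1 shared profile pull it up. With identical profiles counted once the median over 152 profiles was 4.50. Of the 186, 102 lay above 5.01, the 95th percentile of the 23 background control probe sets, against 39.5% of all probe sets. With identical profiles counted once 68 of 152 did (44.7%). That percentile is set by controls with few G and C bases: those with 3, 4 and 5 read 5.03, 5.30 and 4.80. The median control read 2.77, and 6 members lay below it. A level under 5.01 is therefore not shown to be at the floor. The long noncoding RNAs were dim, with a median of 3.30 and only 2 of 19 above the array's median, and Zeb2os, transcribed opposite Zeb2, was the highest at 6.00. Of the 21 members without a symbol 18 lay at or below the background percentile, and the other 3 were TSUnmapped00000096.mm.1 at 19.66, TSUnmapped00000095.mm.1 at 18.66 and TSUnmapped00000053.mm.1 at 7.73. Each level also depends on how well its probes bind, so levels of different probe sets do not rank the amounts of their transcripts.

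**Figure D1:**
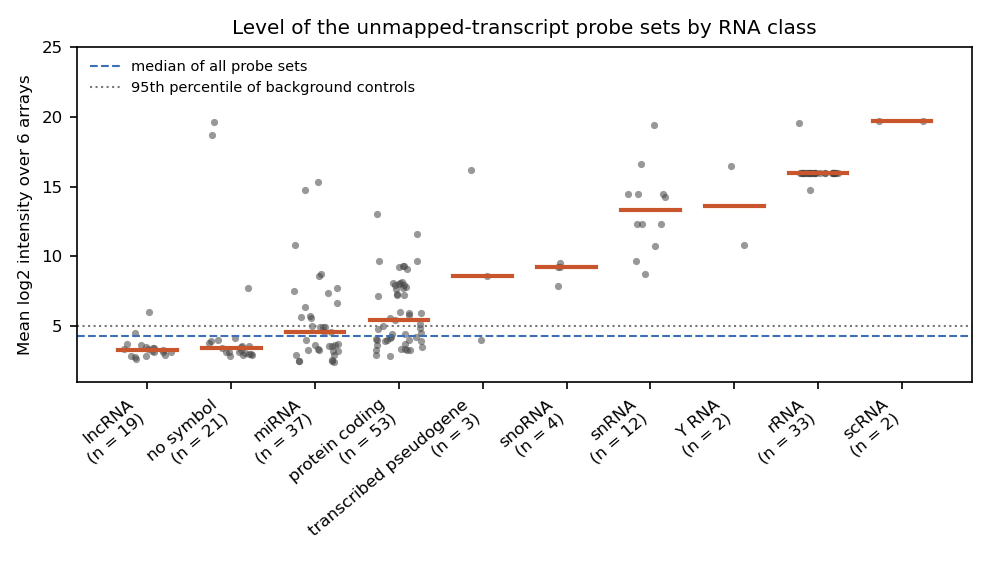
Mean log2 intensity over the 6 arrays (vertical axis) of each of the 186 unmapped-transcript probe sets, by RNA class (horizontal axis); each point is a probe set and each bar the class median. The long noncoding RNAs and the probe sets without a symbol mostly lie under the background line at 5.01, and all structural RNA classes lie above it.

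The 5 brightest members read structural RNAs or had no symbol, and all sat near the top of the scale. Rn7s1 and Rn7s2 (7SL) shared 1 set of values, 19.72, 19.71 and 19.67 on WT arrays, against 19.75, 19.61 and 19.77 on those labelled ATF3-CKO. The unnamed TSUnmapped00000096.mm.1 gave 19.67, 19.63 and 19.62, then 19.70, 19.54 and 19.78. Rn28s1 (28S rRNA) gave 19.51, 19.45 and 19.59, then 19.53, 19.56 and 19.70. Rn7sk (7SK) gave 19.36, 19.34 and 19.33, then 19.36, 19.49 and 19.49. In each of these the groups overlapped, and the span over the 6 arrays ran from 0.16 for Rn7s1 to 0.24 for TSUnmapped00000096.mm.1.

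Many members repeat each other or a mapped probe set exactly. A single profile, 16.07, 15.96 and 15.99 on WT arrays and 15.04, 16.60 and 16.12 on the others, was shared by 31 5S rRNA probe sets (24 named n-R5s, 6 named Gm and Rn5s), whose genes RefSeq places on chromosome 8. Rnu3b1, Rnu3b2 and Rnu3b3 shared another, as did Rn7s1 with Rn7s2 and Rnu1b1 with Rnu1b2, and the other 148 profiles belonged to 1 member each. In addition 31 members, 29 of them microRNAs with Rny3 and Rnu5g, had on every array the values of a mapped probe set. Such copies are 1 measurement with several names and add no replication, and they are left out of the counts of agreement below.

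Few members differed between the groups, and their share was close to that of the array. In limma with Benjamini-Hochberg adjustment over all 65956 probe sets, 5 of 186 members passed an adjusted p of 0.05 (2.69%), against 2.85% of all probe sets. Higher on the arrays labelled ATF3-CKO were 2 members, where 1.17% of all probe sets were called higher. Lower were 3, where 1.68% of all probe sets were called lower. The called members were Ddit3 and Cd83 on the one side, and 2 probe sets of Aopep and the unnamed TSUnmapped00000053.mm.1 on the other. A fold of 2 or more was reached upward by 2 members and downward by 1, where 1.18% and 0.838% of all probe sets did so. In 36 members (19 higher, 17 lower) the groups did not overlap, which is 19.4% of the members, and 24.0% of all probe sets showed the same. The median difference of the members was -0.002 on the log2 scale, with 93 positive and 93 negative, against 0.06 over all probe sets. The 31 copies of the 5S profile weigh on that balance, and with identical profiles counted once 89 differences were positive and 63 negative with a median of 0.04, while over all probe sets 43403 were positive and 22553 negative.

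**Figure D2:**
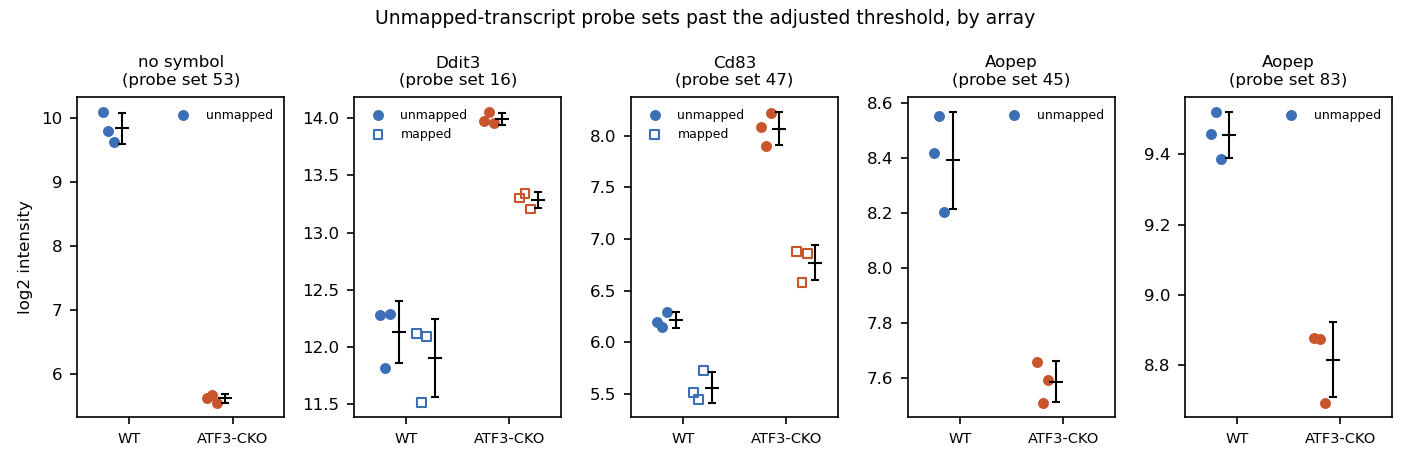
Log2 intensity (vertical axis) on each array for the 5 unmapped-transcript probe sets past an adjusted p of 0.05, with open squares for the mapped partner where a mapped probe set carries only that symbol; bars are the mean and SD of 3 arrays, and each panel has its own vertical range. In every panel the 3 WT arrays and the 3 arrays labelled ATF3-CKO are wholly apart.

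Ddit3 encodes CHOP, a transcription factor of the integrated stress response that pairs with C/EBP proteins. Its unmapped probe set read 12.28, 11.82 and 12.29 on WT arrays, against 13.97, 14.05 and 13.96 on those labelled ATF3-CKO, so that every array of the second group lay above every array of the first. The means were 12.13 ± 0.27 and 13.99 ± 0.05 (SD, n = 3 each), a difference of 1.86 (SE 0.14, limma adjusted p 0.00133), or 3.64-fold. The mapped Ddit3 probe set read 12.12, 11.51 and 12.09, then 13.30, 13.34 and 13.21, a difference of 1.38 (SE 0.17, limma adjusted p 0.00895). Both probe sets therefore rose, and WT replicate 2 was the lowest array in both.

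The Ddit3 promoter is shown because ATF3 is a factor of the same stress response and binds sites of the AP-1 and cyclic AMP response element (CRE) type. In the RefSeq window of 250 bases before to 50 after the gene start (chr10:127290543-127290842, plus strand, GRCm38.p6), the search covered TGANTCA (AP-1 type), TGACGTCA (CRE), its core TGACG, and TGATGCAA (C/EBP-ATF type), each on both strands, with TGACG also counted inside TGACGTCA.
Ddit3: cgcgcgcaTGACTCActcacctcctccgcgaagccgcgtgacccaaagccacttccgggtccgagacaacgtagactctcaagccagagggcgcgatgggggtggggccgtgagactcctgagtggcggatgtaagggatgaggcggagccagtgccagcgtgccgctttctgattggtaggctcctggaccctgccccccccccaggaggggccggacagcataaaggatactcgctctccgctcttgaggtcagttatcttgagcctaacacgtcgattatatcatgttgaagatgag
The capitals mark the match found, TGACTCA from base -242 to -236, and TGANTCA stood in 7.81% of the 32851 windows. A match of letters is a description of the sequence, and no binding was measured on these arrays.

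Cd83 encodes a surface protein known from mature dendritic cells and activated lymphocytes. Its unmapped probe set read 6.20, 6.15 and 6.30 on WT arrays, against 8.08, 7.90 and 8.22 on those labelled ATF3-CKO, with the groups far apart. Means were 6.21 ± 0.08 and 8.07 ± 0.16 (SD, n = 3 each), and the difference of 1.85 (SE 0.10, limma adjusted p 4.202e-04) corresponds to 3.62-fold. The mapped Cd83 probe set was dimmer, at 5.51, 5.44 and 5.73, then 6.88, 6.58 and 6.86, and differed by 1.21 (SE 0.12, limma adjusted p 0.00434). A smaller value on each array and a smaller difference were thus read from the mapped probe set of the same gene.

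TSUnmapped00000053.mm.1, which has no symbol, gave the strongest response of all members. It read 10.09, 9.80 and 9.62 on WT arrays, against 5.64, 5.68 and 5.56 on those labelled ATF3-CKO, the latter not far above the background percentile of 5.01. The means were 9.84 ± 0.24 and 5.62 ± 0.06 (SD, n = 3 each), a difference of -4.21 (SE 0.13, limma adjusted p 6.356e-05), or 18.6-fold, which ranked 12 among the lowest differences of the 65956 probe sets. Its gene cannot be named from the annotation used here. The list means of neutrophil, osteoclast and monocyte markers given above were lower on those arrays too. The mean of 4 fibroblast markers ran from 5.52 to 6.00 on WT arrays and from 5.95 to 7.24 on the others, with 0 called. No T cell or B cell marker read was called either. Among the 4 monocyte markers only Ly6c2 was called lower (-4.14), and the neutrophil markers Elane and Mpo were not called. The mean of the macrophage list ran from 13.26 to 13.96 on WT arrays and from 13.37 to 13.57 on the others. Within that list Itgam was lower (-3.63), and Mertk (1.36) and Cd14 (1.08) were higher. Whether a change in cell types lies behind this probe set was not tested.

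Aopep encodes an aminopeptidase of the zinc metallopeptidase kind, and 4 unmapped probe sets carried its symbol. TSUnmapped00000045.mm.1 read 8.42, 8.55 and 8.20 on WT arrays, against 7.66, 7.51 and 7.59 on those labelled ATF3-CKO, a difference of -0.81 (SE 0.11, limma adjusted p 0.0133). TSUnmapped00000083.mm.1 read 9.46, 9.52 and 9.39, then 8.88, 8.87 and 8.69, a difference of -0.64 (SE 0.09, limma adjusted p 0.0149). In both the groups were wholly apart. TSUnmapped00000049.mm.1 read 7.38, 7.67 and 7.45, then 7.22, 6.80 and 7.20, a difference of -0.43 that did not pass (limma adjusted p 0.174) although the groups were apart. TSUnmapped00000084.mm.1 was dim, near 4.49, with overlapping groups and a difference of -0.17 (limma adjusted p 0.690). The mapped probe set annotated to Aopep also names Mir23b, Mir27b and Mir24-1 and so has no single symbol, and it read 8.20, 8.17 and 8.01, then 7.63, 7.51 and 7.50, a difference of -0.58 (limma adjusted p 0.0210). These calls were the least firm of the 5: with WT replicate 1 left out the first 2 probe sets had adjusted p of 0.0652 and 0.0714, with ATF3-CKO replicate 3 left out 0.0736 and 0.0686, and with ATF3-CKO replicate 2 left out TSUnmapped00000045.mm.1 had 0.0624.
The Aopep promoter window (chr13:62964643-62964942, plus strand, GRCm38.p6) is shown for the same search, with its only match in capitals.
Aopep: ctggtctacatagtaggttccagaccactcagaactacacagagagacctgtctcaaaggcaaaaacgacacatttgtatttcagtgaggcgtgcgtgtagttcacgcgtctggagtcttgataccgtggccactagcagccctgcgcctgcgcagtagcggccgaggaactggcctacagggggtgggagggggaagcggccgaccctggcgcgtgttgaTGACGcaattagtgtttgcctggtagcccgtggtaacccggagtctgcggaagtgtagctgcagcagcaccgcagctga
That match is the CRE core TGACG from base -29 to -25, which stood in 20.8% of the windows. TGACGTCA stood in 1.79% and TGATGCAA in 0.895% of windows, and neither was found in the Ddit3 or Aopep window.

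Other genes with several unmapped probe sets had no probe set past the threshold. All 4 probe sets of Rcor3, a corepressor of the CoREST family, were bright (9.26 to 9.71) and had differences from -0.45 to -0.29, and the mapped Rcor3 probe set had -0.37, with no limma adjusted p below 0.128 among them. TSUnmapped00000009.mm.1, the brightest, read 9.81, 9.85 and 10.13 on WT arrays, against 9.66, 9.30 and 9.50 on those labelled ATF3-CKO, with the groups apart. Rora, a nuclear receptor, had a bright probe set at 9.67, 9.24 and 10.19, then 9.18, 8.92 and 8.86 (difference -0.72, SE 0.23, limma adjusted p 0.162), and a dim one near 4.10 (difference -0.10). The mapped Rora probe set had -0.45 (limma adjusted p 0.106). Nudt7, a peroxisomal hydrolase of coenzyme A, had 3 differences from -0.41 to -0.15. The 4 probe sets of Rbm4, an RNA-binding splicing regulator, ran from -0.16 to -0.01. Pemt, which methylates phosphatidylethanolamine, had 4 positive differences of 0.04 to 0.21, while its mapped probe set had -0.08. For Ccdc169 the 5 differences ran from -0.21 to 0.10.

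**Figure D3:**
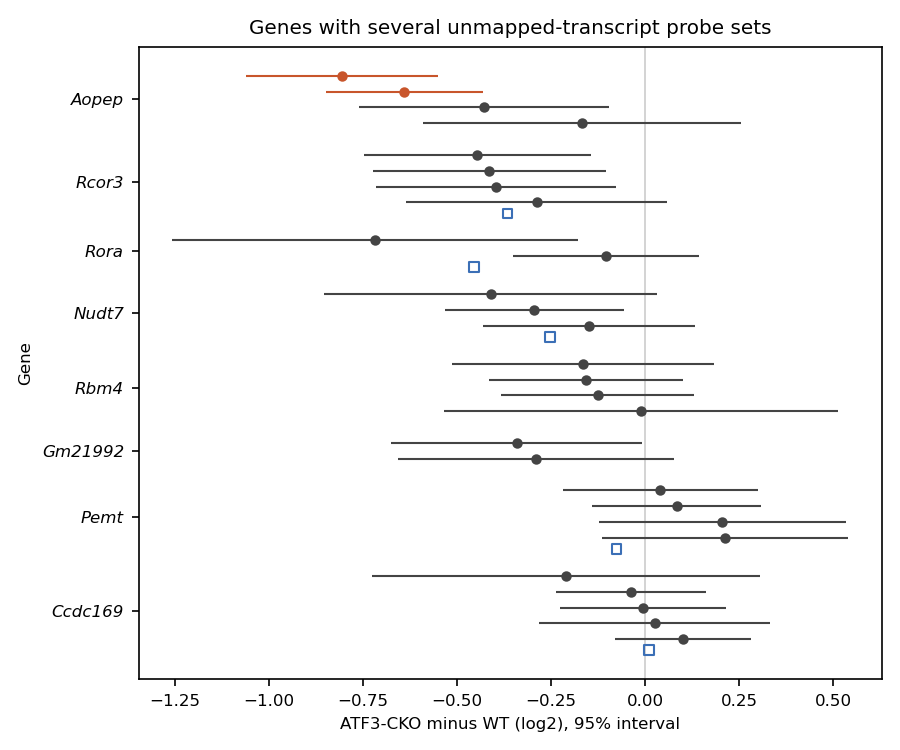
Difference between arrays labelled ATF3-CKO and WT (horizontal axis, log2) with its 95% interval for each unmapped-transcript probe set of 8 genes (vertical axis); orange points passed an adjusted p of 0.05, and open blue squares are the brightest mapped probe set that carries only that symbol. The 2 Aopep probe sets that passed lie at -0.81 and -0.64, and the Rcor3 probe sets and their mapped square lie between -0.45 and -0.29.

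Agreement with the mapped probe set of the same symbol was then counted. A mapped probe set with that symbol alone existed for 118 members, and the brightest was used. Of these 118 pairs 18 were identical on all arrays, and the remaining 100 held 74 different pairs from 55 symbols. Among the 74, 54 had differences of the same sign (73.0%). Among the 39 in which both probe sets lay above the median level, 33 did (84.6%). The 41 protein-coding pairs gave 29 (70.7%) and, above the median level, 15 of 19 (78.9%). The 33 pairs of other classes gave 25 (75.8%) and 18 of 20 (90%). Near-copies stay in these counts, such as Mir3961, with a level gap of 0.003 and a change gap of -0.004, and can hardly disagree. For comparison, the second brightest against the brightest mapped probe set of a symbol had the same sign in 171 of 243 pairs (70.4%), and in 104 of 135 (77.0%) above the median level. Both probe sets of a pair were read from the same 6 arrays, so shared array effects enter these counts. In 11 of the 74 pairs both probe sets had groups that did not overlap, all 11 in the same direction. In 0 pairs did they point in opposite directions. Of the 243 mapped pairs, 42 had such groups in the same direction and 3 in opposite directions. The units differ: several of the 11 share the mapped probe set of Rcor3 or of Nudt7, while the 243 pairs came from 243 symbols. Both members of a pair passed the adjusted threshold for Ddit3 and Cd83, and in no pair did only 1 of them pass. Among the 243 mapped pairs, both passed in the same direction in 3, and only 1 passed in 17.

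**Figure D4:**
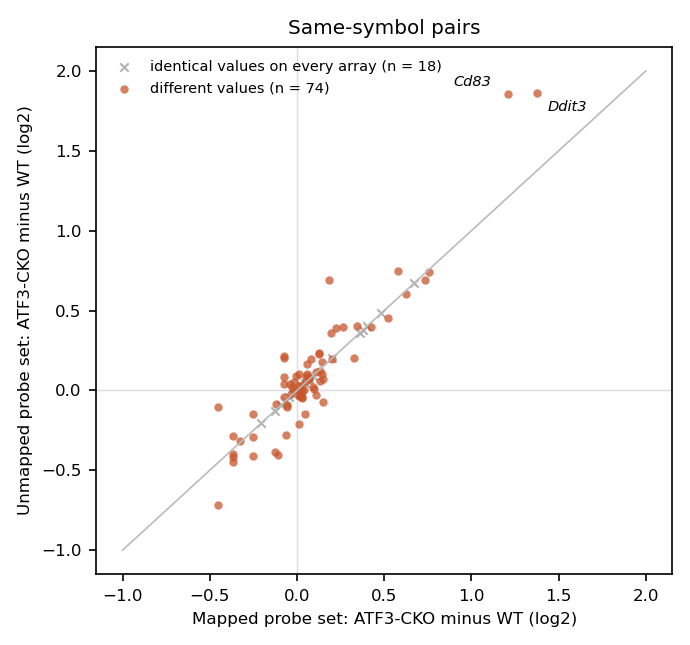
Difference between arrays labelled ATF3-CKO and WT (log2) of the mapped probe set (horizontal axis) and of the unmapped-transcript probe set (vertical axis) of the same symbol; the grey line marks equal differences, crosses are pairs with identical values on every array and orange points the other pairs. Most points lie within 0.50 of zero, and Ddit3 (1.38 and 1.86) and Cd83 (1.21 and 1.85) lie apart from the rest and above the line.

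Whether the 2 probe sets of a pair changed by different amounts was tested with limma on their difference on each array, adjusted over the 419 pairs of the array that share a symbol and are not identical. These 419 still include repeated profiles. Of the 74 different member pairs 2 passed, where 2.15% of all 419 pairs did. Ddit3 rose by 0.49 more on the unmapped than on the mapped probe set (95% interval 0.33 to 0.64, SE 0.06, limma adjusted p 0.0141). For Cd83 the gap was 0.65 (95% interval 0.47 to 0.82, SE 0.07, limma adjusted p 0.00938). Both gaps were positive with the groups apart, yet neither call was firm. The Ddit3 gap had adjusted p of 0.0923 without WT replicate 1, 0.0677 without WT replicate 3, 0.0676 without ATF3-CKO replicate 2 and 0.0864 with the third ATF3-CKO array left out. The Cd83 gap had 0.0538 without ATF3-CKO replicate 2, and without WT replicate 1 it fell just short of the threshold of 0.05. Of the other 72 pairs, 4 had an unadjusted limma p under 0.05, for Vsig10l, Ache, Zeb2os and the long noncoding RNA Gm12440.

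Levels of the 2 probe sets of a pair were usually close, with a median gap of 0.44 on the log2 scale over the 74 pairs. In 43 the unmapped probe set was the brighter and in 31 the dimmer. The gap exceeded 2 in 5 pairs, which were chosen here after their values were seen. Rnu1b2, a U1 snRNA gene, read 14.48 on the unmapped and 6.41 on the mapped probe set. Its unmapped values are those of Rnu1b1 as well, whose own mapped probe set read 14.30. Rnu3b4, of U3, read 10.74 and 5.09. Cd99, a leukocyte adhesion protein, read 8.06 and 5.65. In the other direction, the pseudogene Gm12338 read 8.61 and 14.42, and the dim Rora probe set 4.10 and 7.84. A symbol shared by 2 probe sets on this array was thus no assurance of a shared level.

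Several structural RNAs varied widely between arrays of 1 group. Snord13, a snoRNA, read 7.12, 5.53 and 9.88 on WT arrays, against 6.36, 10.65 and 7.76 on those labelled ATF3-CKO, a range of 5.12 that crosses both groups. Its spread within groups ranked 3 of all 65956 probe sets. The Y RNAs, noncoding RNAs bound by the Ro protein, were low on WT replicate 3: Rny1 read 11.63, 11.27 and 9.36, then 10.35, 11.08 and 11.07, and Rny3 read 17.03, 16.73 and 15.03, then 16.32, 16.78 and 16.82. The shared 5S rRNA profile was low on ATF3-CKO replicate 1 (15.04, against 15.96 to 16.60 on the other 5 arrays), and n-R5s136, the remaining 5S probe set, was lowest on the same array at 13.63. The difference of the shared 5S profile was -0.09, and 0.36 (limma adjusted p 0.304) with that array left out. None of these passed the adjusted threshold, and their groups overlapped.

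All 12 snRNA-class members (U1, U2, U3, U5 and 7SK) had positive differences with overlapping groups, and none passed. They hold 9 different profiles, and 65.8% of all probe sets had positive differences too. Rnu1b6 (U1) read 13.97, 13.82 and 14.57, then 14.38, 15.02 and 15.18, a difference of 0.74 (SE 0.26, limma adjusted p 0.198). Rnu3b2 (U3), with the values that Rnu3b1 and Rnu3b3 share, read 12.11, 12.12 and 12.23, then 11.94, 13.09 and 12.63, a difference of 0.40 (SE 0.26, limma adjusted p 0.496), and of 0.71 with an adjusted p of 0.0919 without ATF3-CKO replicate 1. Rnu2-10 (U2) read 14.02, 13.97 and 14.11, then 13.63, 14.84 and 14.98. Its difference was 0.45 (SE 0.33, limma adjusted p 0.544), and 0.88 with an adjusted p of 0.0186 without ATF3-CKO replicate 1. That array lay below the other 2 arrays of its group in every structural RNA family read except 7SL. The 28S and 7SK probe sets spanned only 0.24 and 0.16 over the 6 arrays. Their mean levels of 19.56 and 19.4 lay close to the highest value of the data, 19.93. Whether signal can still vary at that level was not tested.

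**Figure D5:**
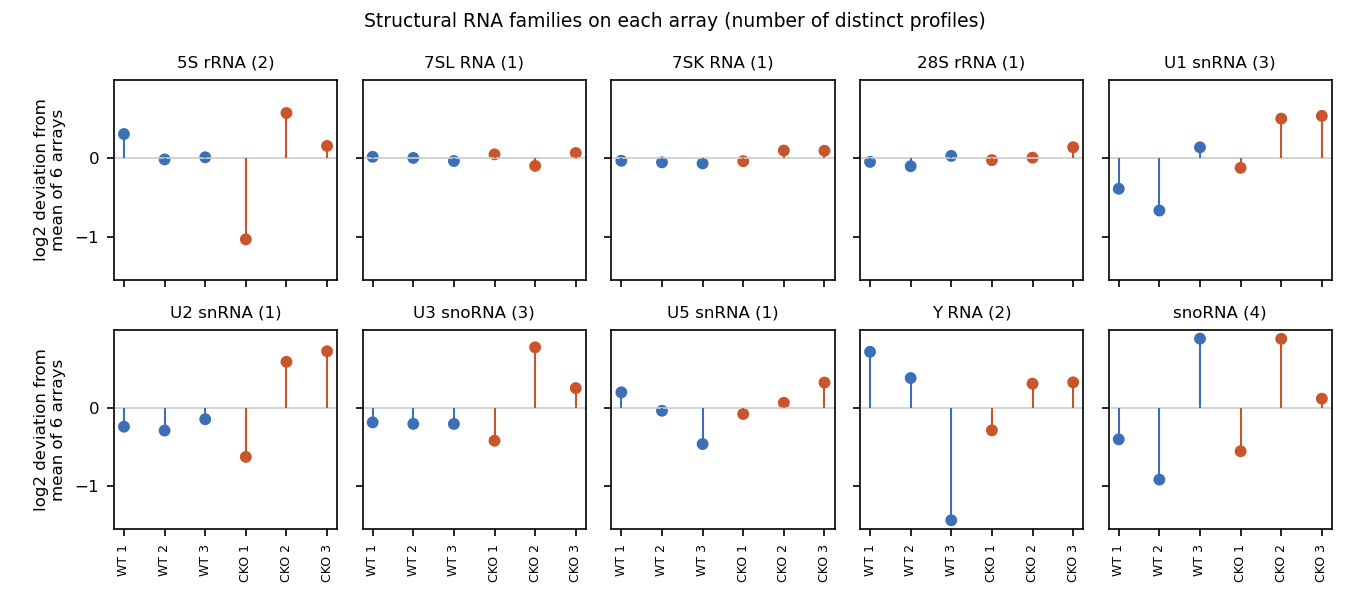
Deviation of each array from the mean of the 6 arrays (vertical axis, log2), averaged over the distinct unmapped-transcript profiles of each structural RNA family (their number in brackets), for the 3 WT arrays in blue and the 3 arrays labelled ATF3-CKO in orange. The 5S family falls to -1.03 on ATF3-CKO replicate 1 and the Y RNAs to -1.43 on WT replicate 3. The 7SL, 7SK and 28S families stay near 0, and their levels lie near the top of the scale.

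Of the 37 microRNA members, 14 lay above the background percentile, 25 had positive and 12 negative differences, and 0 passed the adjusted threshold in limma (9 had an unadjusted p under 0.05, 8 positive and 1 negative). Over all probe sets 65.8% of differences were positive and 17.8% had an unadjusted p under 0.05, 11.6% positive and 6.20% negative. Mir3472 came nearest, at 14.72, 14.17 and 14.47 on WT arrays, against 15.15, 15.04 and 15.19 on those labelled ATF3-CKO, with the groups apart and a difference of 0.67 (SE 0.14, limma adjusted p 0.0593). Its mapped namesake had identical values, so the 2 are 1 measurement. Mir6240, the brightest, read 14.66, 14.75 and 15.86, then 15.15, 15.66 and 16.02, with overlapping groups. Mir3471-2, the next after these in level, read 10.64, 10.32 and 10.76, then 10.81, 11.01 and 11.35, with the groups apart and a difference of 0.48 (SE 0.17, limma adjusted p 0.194). Mir7683 was the brightest with a negative difference, at 9.17, 8.95 and 8.89, then 8.41, 8.75 and 8.45 (difference -0.47, SE 0.12, limma adjusted p 0.105), its groups apart. Mir3473b read 7.72, 7.41 and 7.57, then 7.82, 7.99 and 8.09 (difference 0.40, limma adjusted p 0.121), also apart. Mir8117 and Mir680-1 had differences of 0.68 and 0.61 with overlapping groups. Mir342 read 7.13, 8.02 and 7.10, then 7.13, 7.92 and 7.01, high on replicate 2 of both groups, with a difference of -0.06.

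The members just outside the adjusted threshold, after Mir3472, were LOC547349 and TSUnmapped00000134.mm.1. LOC547349 read 7.51, 7.44 and 7.32 on WT arrays, against 8.06, 7.75 and 7.88 on those labelled ATF3-CKO, a difference of 0.47 (SE 0.11, limma adjusted p 0.0704). TSUnmapped00000134.mm.1, unnamed and dim, read 3.86, 3.82 and 3.88, then 4.12, 4.23 and 4.18, a difference of 0.32 (limma adjusted p 0.0743). Both had groups wholly apart. No symbol of a member stood on the lists kept for interferon response, antigen presentation, paired immune receptors, apoptosis, cell cycle, chemokines and cytokines, or macrophage and other cell type markers. Those lists were fixed selections of 21 to 101 symbols. A member that is not on them can still belong to such a family.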

How the data were processed

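Total RNA of 6 BMDM cultures was hybridised to Affymetrix arrays, which the labels call Clariom D and the study's methods Clariom S. The authors deposited log2 values, which Affymetrix Expression Console computed by RMA (robust multichip average) with, per their methods, global scaling. Software versions are not stated in the sources. As deposited the array medians ran from 4.22 to 4.42, so the arrays were not fully level, and quantile normalization and centring were run as alternatives. Of 72688 deposited probe sets 6732 controls were left out. Arrays give no read depth, so their number limits the precision.

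Groups came from the labels. The log2 values of all 65956 probe sets were fitted in R 4.3.3 by limma 3.58.1 (group as the only term, two-sided moderated test) and adjusted by Benjamini-Hochberg. The steps were tested on simulated data. The smallest p of an exact permutation over 3 and 3 arrays is 0.1, which is why limma alone was run. The titles call the arrays biological replicates, without naming animals, so p-values measure the spread between these arrays. Symbols came from the platform annotation where it gave 1 distinct symbol, with classes and chromosomes from RefSeq (GRCm38.p6) through the Entrez ID.

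Other alternatives were a filter at the median level, array weights, trend and robust settings, the replicate block and leaving out each array. Members and lists were chosen with earlier results of these data known. Named by rule were members past the threshold with groups apart and a level above the median of all probe sets (up to 10 per direction), members whose mapped partner passed, the 5 brightest, members on a kept list, and Atf3 and Lyz2 as label checks. Lyz2 was higher by 0.49 on the arrays labelled ATF3-CKO, with the groups apart (limma adjusted p 0.0817). All other names were chosen after their values were seen.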

Additional observations from a re-analysis of the deposited data

How the results depend on the processing

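Under quantile normalization, median-centring, trend and robust settings and the replicate block the same 5 members passed as in the text. From 1.95% to 3.09% of all probe sets passed there. A filter on dim probe sets kept the 5 and added Mir3472 (limma adjusted p 0.0466), when 6.70% of the probe sets left passed. Array weights gave 7 higher and 6 lower members, when 8.19% of all probe sets passed. Leaving out each array gave 2 to 3 higher and 1 to 3 lower members, when 0.823% to 3.07% of all probe sets passed. Ddit3, Cd83 and TSUnmapped00000053.mm.1 passed under every alternative run, with adjusted p up to 0.0144, 0.00456 and 0.00163, and no sign of the 5 turned. The median difference was -0.087 after centring, -0.086 after the filter, 0.04 with identical profiles counted once (chosen after seeing the data), and -0.036 to 0.12 without single arrays, the highest without ATF3-CKO replicate 1. Above the median of the background controls lay 180 members. Of the pairs left by the filter 33 of 39 had the same direction, and 55 to 62 of 74 did without single arrays. Pairs whose change differed numbered 0 to 2 without single arrays. With the replicate number as a block they numbered 0 (adjusted p 0.0742 for Ddit3, 0.0579 for Cd83). Deviations of same-numbered arrays correlated at 0.03, -0.09 and -0.07, which gave no sign of pairing by replicate number. Such correlations cannot exclude that same-numbered cultures were handled together, which the sources do not state. The block moved the calls over all probe sets from 1881 to 1284. Calls on dim members are limited by signal near the background controls.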
